A study of Homo sapiens with 20 samples.

Results

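The CEACAM genes encode carcinoembryonic antigen-related cell adhesion molecules, and 5 of the 36076 genes of the mRNA-seq table were followed: CEACAM1, CEACAM5, CEACAM6, CEACAM7 and CEACAM19. They were selected by symbol and on their measured levels and changes after decitabine, with CEACAM1 set against CEACAM5 and CEACAM6. Their transcript levels and changes are therefore given as a description without a test. The table held 7 other CEACAM genes and 10 pregnancy-specific glycoprotein (PSG) genes of the same superfamily, which serve only as surroundings.

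CEACAM proteins are surface glycoproteins of the immunoglobulin superfamily that bind each other between neighbouring cells. CEACAM1 spans the membrane, and its long cytoplasmic tail carries inhibitory tyrosine motifs that recruit the phosphatases SHP-1 and SHP-2. The levels given below are per gene and do not tell transcript forms of CEACAM1 apart. CEACAM1 on a tumour cell can engage CEACAM1 on T and NK cells. CEACAM5 (carcinoembryonic antigen, a serum tumour marker), CEACAM6 and CEACAM7 have no cytoplasmic tail and are held by a glycosylphosphatidylinositol (GPI) anchor, whereas CEACAM19 is a transmembrane member that has been studied far less. Decitabine (DAC) is a cytidine analogue that enters DNA and traps DNA methyltransferases.

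The human lung cancer lines A549, CL1-0, CL1-5, PC9, H1299 and H1792 were either Mock-treated with PBS or exposed to 100 nM DAC for 72 hours, and the treated cells then had 3 days in drug-free medium. In these bulk samples fewer cells with a transcript and less of it per cell cannot be told apart. There was 1 mRNA-seq library for each of the 6 lines and each treatment. Accessible DNA was mapped by transposase insertion (Omni-ATAC-seq) in 4 of these lines, again with a single library for each arm of A549, H1299, CL1-5 and PC9. No line was repeated and no separate cultures are named, so the spread between lines is the error used for a mean over lines, and CL1-5 is a more invasive subline derived from CL1-0 and is not fully independent of it.

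Levels are FPKM, read fragments scaled to transcript length and to library depth. They are compared between genes and, under this depth scaling, between libraries. The FPKM of a library summed to between 284496 and 416327, with 416327 in Mock A549 and 326951 in A549 after DAC. Counting intervals of the ratios within a line were not recomputed after rescaling to a common sum. Whole reads were recovered from the FPKM values, and the 10 libraries of the other lines held 22234485 to 25303899 reads on genes. The H1299 libraries held 59735913 (Mock) and 52634234 (DAC) reads, and among genes with 1 to 20 reads 85.5% and 81.9% had an even number, against 39.2% to 41.5% elsewhere. H1299 reads were therefore halved for the counting intervals, all of which are exact 95% intervals that cover counting error only. The epithelial markers EPCAM, CDH1, KRT7, KRT8, KRT18 and KRT19 summed to between 111.8 and 3589 FPKM in the lines other than CL1-0, where they summed to 0.986 (Mock) and 3.05 (DAC). A list of 7 leukocyte markers, with PTPRC, CSF3R and MPO among them, summed to 0.0754 to 0.840 FPKM per library.

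All 5 genes lie on chromosome 19. In GRCh37 coordinates CEACAM7 (42177231 to 42210895, minus strand), CEACAM5 (42212504 to 42234353, plus strand) and CEACAM6 (42254885 to 42276116, plus strand) follow each other, CEACAM1 (43011456 to 43065386, minus strand) is farther along, and CEACAM19 (45165545 to 45187631, plus strand) is the most distant. RefSeq promoters of 300 bases (250 before and 50 after the transcript start, GRCh38.p14) were found for CEACAM1, CEACAM5, CEACAM6 and CEACAM7. They are shown because the DNA methyltransferases trapped by DAC act on cytosine of CpG dinucleotides. Their letters also place the genes of the CEACAM1 against CEACAM5 and CEACAM6 contrast side by side. CpG dinucleotides are in capitals and each sequence runs 5′ to 3′ on the strand of its gene.
CEACAM1 promoter, chr19:42528432-42528731, minus strand: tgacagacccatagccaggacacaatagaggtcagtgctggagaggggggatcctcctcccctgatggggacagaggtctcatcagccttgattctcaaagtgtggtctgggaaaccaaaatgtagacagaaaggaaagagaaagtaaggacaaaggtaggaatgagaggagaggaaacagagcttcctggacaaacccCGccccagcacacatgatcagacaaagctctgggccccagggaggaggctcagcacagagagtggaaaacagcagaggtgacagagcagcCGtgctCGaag
CEACAM5 promoter, chr19:41708376-41708675, plus strand: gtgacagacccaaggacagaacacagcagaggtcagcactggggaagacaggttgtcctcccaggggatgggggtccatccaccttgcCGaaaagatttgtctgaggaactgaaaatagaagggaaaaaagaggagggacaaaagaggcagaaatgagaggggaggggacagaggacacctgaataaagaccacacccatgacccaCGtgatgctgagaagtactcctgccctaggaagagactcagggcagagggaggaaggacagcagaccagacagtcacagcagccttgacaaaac
CEACAM6 promoter, chr19:41755280-41755579, plus strand: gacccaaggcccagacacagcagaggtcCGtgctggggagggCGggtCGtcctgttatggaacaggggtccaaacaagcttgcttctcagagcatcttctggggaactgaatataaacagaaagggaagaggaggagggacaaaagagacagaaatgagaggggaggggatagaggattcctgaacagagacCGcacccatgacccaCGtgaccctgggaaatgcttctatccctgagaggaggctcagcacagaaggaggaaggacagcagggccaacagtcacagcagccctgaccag
CEACAM7 promoter, chr19:41688221-41688520, minus strand: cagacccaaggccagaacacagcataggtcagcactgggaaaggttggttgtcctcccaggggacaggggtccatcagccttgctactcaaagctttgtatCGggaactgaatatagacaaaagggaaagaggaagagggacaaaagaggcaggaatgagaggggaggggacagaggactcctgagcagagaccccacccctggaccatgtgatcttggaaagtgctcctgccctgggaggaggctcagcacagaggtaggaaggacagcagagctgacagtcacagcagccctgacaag
These promoters held few CpG sites: 3 in CEACAM1, 2 in CEACAM5, 5 in CEACAM6 and 1 in CEACAM7, against a median of 14 over 35116 RefSeq promoters of the same length. Only 18.2%, 10.97%, 29.6% and 3.96% of those promoters, in the same order, held fewer.

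The 4 promoters resembled each other closely. In global alignments CEACAM5 and CEACAM7 shared 81.4% of aligned columns, CEACAM6 and CEACAM7 81.3%, and CEACAM5 and CEACAM6 75.9%, whereas CEACAM1 shared 67.0% with CEACAM5, 69.1% with CEACAM6 and 72.9% with CEACAM7. The E-box CACGTG, the letters bound by the upstream stimulatory factors USF1 and USF2, began 46 bases before the start in CEACAM5 and 45 bases before it in CEACAM6, and 7.26% of all promoters held it. The letters aligned to it were cacatg in CEACAM1 and catgtg in CEACAM7. The GC box GGGCGG, which Sp-family factors bind, was matched 211 bases before the start of CEACAM6 and, on the opposite strand, 52 bases before the start of CEACAM1, and 45.0% of promoters held it. The interferon-stimulated element core, searched as GAAA, any 2 letters and GAAA, was matched in CEACAM1, 116 bases before its start, and not in the other 3, and 3.57% of promoters held it. Both strands were searched, no match overlapped another, and a match of letters is no evidence of binding.

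CEACAM1 was higher after DAC in A549, CL1-5, PC9 and H1299, at low levels throughout. In Mock cells CEACAM1 measured 0.727 FPKM in A549, 0.187 in CL1-5, 0.102 in H1792, 0.0696 in H1299, 0.0523 in PC9 and 0.0153 in CL1-0. After DAC it measured 2.19 FPKM in A549, 1.33 in PC9, 1.25 in CL1-5, 0.216 in H1299, 0.0679 in H1792 and 0.0428 in CL1-0. A549 was thus the highest line in both arms. The Mock interval of PC9, 0.0192 to 0.114 FPKM on 6 reads, overlapped those of H1792, H1299 and CL1-0, so the order of these lines in Mock was not resolved. The DAC interval of PC9, 1.14 to 1.55 FPKM, overlapped that of CL1-5, 1.07 to 1.46, so these neighbours did not differ beyond counting error. The intervals of H1792 and CL1-0 after DAC, 0.0310 to 0.129 and 0.0172 to 0.0882 FPKM, overlapped as well.

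In PC9 CEACAM1 went from 6 reads to 170, a FPKM ratio of DAC to Mock of 25.4 (11.5 to 70.3). CL1-5 followed with 28 and 168 reads and a ratio of 6.70 (4.47 to 10.4). The ratio was 3.01 (2.37 to 3.88) in A549, from 86 to 306 reads, and 3.10 (1.52 to 6.82) in H1299, from 22 to 63 reads. These 4 intervals lay above 1, and that of PC9 did not overlap those of CL1-5, A549 and H1299. CL1-0 had 2 and 7 reads with a ratio of 2.79 (0.531 to 27.5), and H1792 had 14 and 9 reads with a ratio of 0.665 (0.254 to 1.65), so neither line showed a difference at this depth. Over the 5 lines other than H1792 the mean log2 fold change was 1.63 ± 1.14 (SD, n = 5) on the log2(FPKM + 0.1) scale, higher in 5 of 5.

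**Figure D1:**
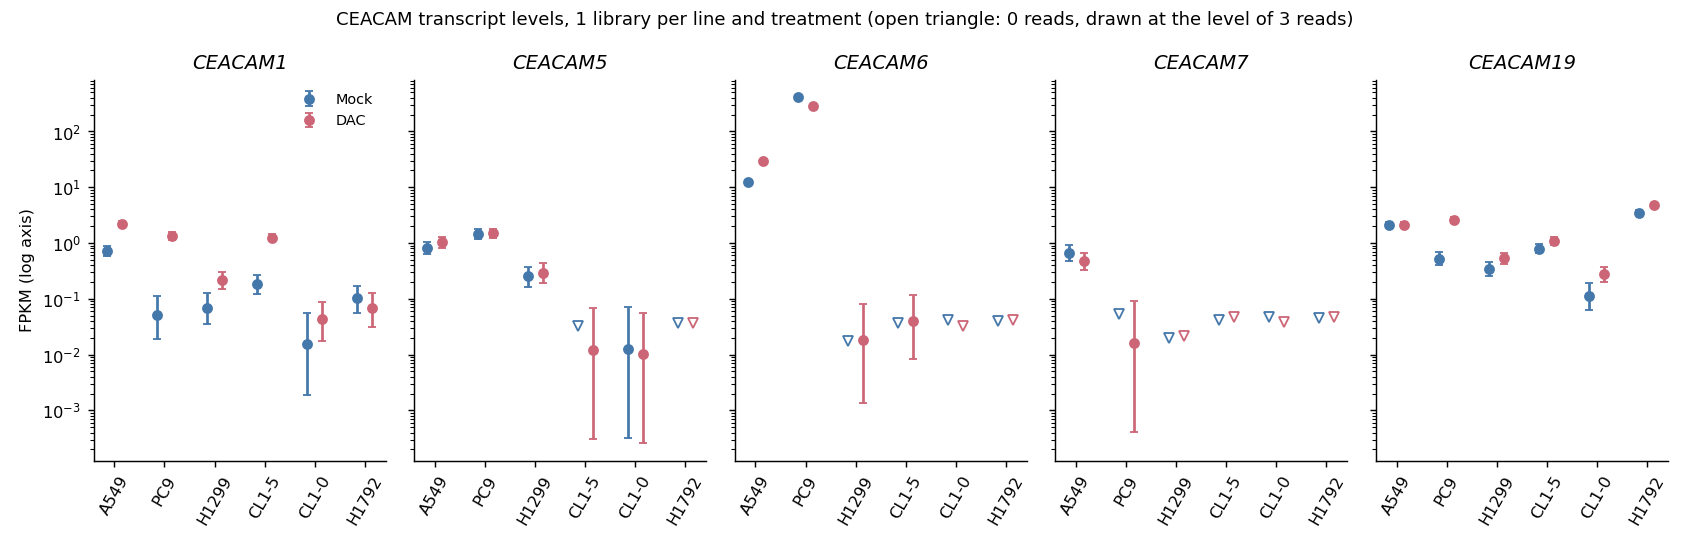
FPKM of each CEACAM gene (log axis) in the 6 lines, with Mock in blue and DAC in red; each point is 1 library, bars are exact 95% counting intervals, and open triangles mark libraries with 0 reads at the level of 3 reads. CEACAM6 in PC9 stands at 409 and 281 FPKM, whereas every CEACAM1 value is at or below 2.19 FPKM.

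CEACAM5 was detected in 3 lines. In FPKM not rescaled to a common sum, it showed no difference beyond counting error in any of them. Mock and DAC levels of CEACAM5 were 1.46 and 1.48 FPKM in PC9 (102 and 115 reads), 0.822 and 1.03 in A549 (59 and 87 reads) and 0.256 and 0.294 in H1299 (49 and 52 reads). The ratios of DAC to Mock were 1.01 (0.769 to 1.34) in PC9, 1.25 (0.887 to 1.77) in A549 and 1.15 (0.636 to 2.08) in H1299. CL1-0, CL1-5 and H1792 had 0 or 1 read of CEACAM5 in every library, and 3 reads correspond to at most 0.0379 FPKM there. The order PC9, A549, H1299 held in both arms, with intervals of neighbouring lines that did not overlap in Mock cells. The mean log2 fold change of CEACAM5 was 0.12 ± 0.13 (SD, n = 5), which was smaller than its spread between lines.

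CEACAM6, a neutrophil and epithelial antigen often abundant in adenocarcinomas, was the most abundant of the 5 genes and moved in opposite directions in the lines that expressed it. In PC9 it measured 409 FPKM in Mock cells and 281 after DAC (25923 and 19833 reads), and in A549 12.5 and 29.2 FPKM (820 and 2253 reads). The other 4 lines had 0 to 3 reads. The ratio of DAC to Mock was 2.33 (2.15 to 2.52) in A549 and 0.687 (0.674 to 0.6999) in PC9, and both intervals excluded 1. PC9 placed CEACAM6 at rank 93 of the 36076 genes in Mock and 107 after DAC, and A549 at rank 3630 and then 1330. Its mean log2 fold change, 0.28 ± 0.65 (SD, n = 5), therefore describes neither line.

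CEACAM7, a GPI-anchored antigen best known from colonic epithelium, was found in A549 alone beyond 1 read, at 0.669 FPKM in Mock and 0.478 after DAC (38 and 32 reads). The ratio was 0.713 (0.431 to 1.17), which includes 1. PC9 had 1 CEACAM7 read after DAC, and all other libraries had 0, for which 3 reads allow up to 0.0545 FPKM.

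CEACAM19 was the only one of the 5 with more than 3 reads in all 12 libraries. Mock levels were 3.51 FPKM in H1792, 2.13 in A549, 0.794 in CL1-5, 0.527 in PC9, 0.343 in H1299 and 0.114 in CL1-0. DAC levels were 4.79 FPKM in H1792, 2.58 in PC9, 2.14 in A549, 1.08 in CL1-5, 0.531 in H1299 and 0.279 in CL1-0. H1792 was highest in both arms, and PC9 passed both CL1-5 and A549 after DAC, although its DAC interval, 2.30 to 2.89 FPKM, overlapped that of A549, 1.89 to 2.40. The ratio of DAC to Mock was 4.90 (3.68 to 6.62) in PC9, 2.45 (1.31 to 4.85) in CL1-0, 1.55 (1.07 to 2.26) in H1299, 1.37 (1.06 to 1.77) in CL1-5, 1.365 (1.21 to 1.55) in H1792 and 1.00 (0.842 to 1.199) in A549. In FPKM not rescaled to a common sum, only the A549 interval included 1. The mean log2 fold change was 0.77 ± 0.80 (SD, n = 5), and 0.44 without PC9. CEACAM19 shares 2.34% of its exon bases with the neighbouring gene PVR on the same strand, and the antisense gene CEACAM16-AS1 runs across it without a shared exon base.

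**Figure D2:**
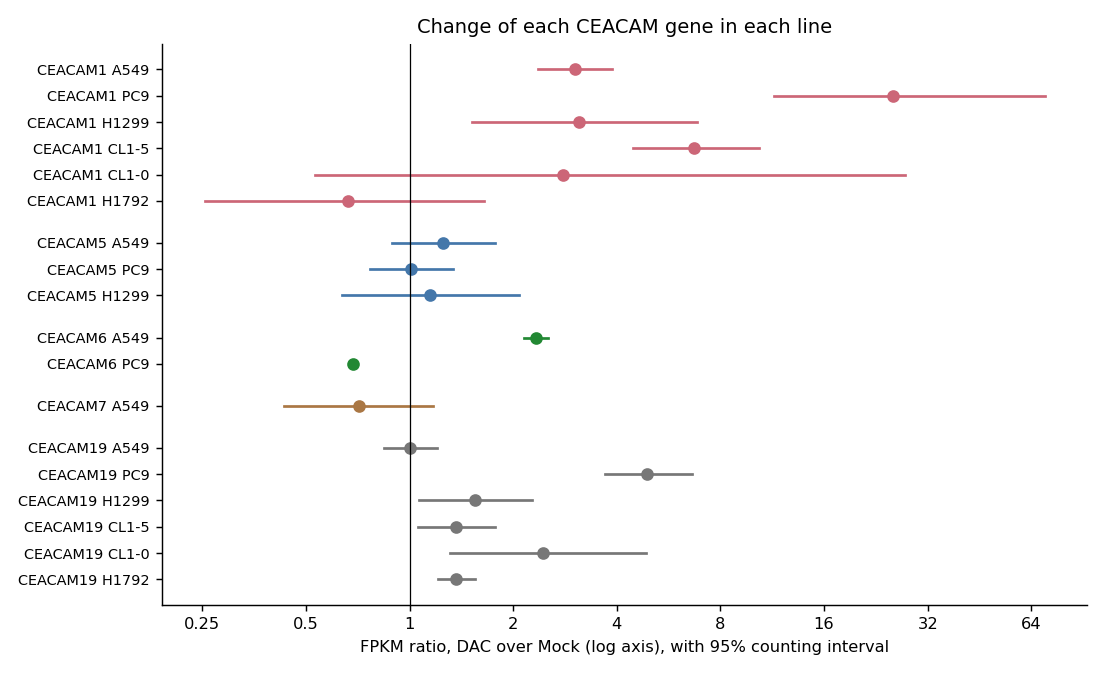
Ratio of DAC to Mock FPKM (log axis) for each CEACAM gene and line with more than 3 reads in at least 1 library and reads in both, with exact 95% counting intervals; the vertical line marks no change. CEACAM1 in PC9 lies farthest right at 25.4, and the CEACAM6 points of A549 (2.33) and PC9 (0.687) lie on opposite sides of the line.

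Set against each other within a line, the change of CEACAM1 had a higher value than those of CEACAM5 and CEACAM6 in each of the 5 lines other than H1792, though not beyond counting error in each. The log2 change of CEACAM1 minus that of CEACAM5 was 3.21 in PC9, 2.07 in CL1-5, 1.18 in A549, 0.75 in H1299 and 0.34 in CL1-0, a mean of 1.51 ± 1.15 (SD, n = 5). Against CEACAM6 it was 3.77 in PC9, 1.75 in CL1-5, 0.65 in H1299, 0.31 in CL1-0 and 0.26 in A549, a mean of 1.35 ± 1.48 (SD, n = 5). PC9 gave the widest gap in both contrasts, and without it the means were 1.09 against CEACAM5 and 0.74 against CEACAM6. In A549 the ratio intervals of CEACAM1 and CEACAM6, 2.37 to 3.88 and 2.15 to 2.52, overlapped. CL1-0 had 2 and 7 reads of CEACAM1, which is no difference at this depth. The CEACAM6 side rests on at most 3 reads in CL1-0, CL1-5 and H1299, and the CEACAM5 side on 0 or 1 read in CL1-0 and CL1-5. H1792 gave -0.27 in both contrasts, with no read of CEACAM5 or CEACAM6.

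The balance between the genes changed most in PC9. CEACAM6 stood 7823-fold above CEACAM1 in FPKM in Mock PC9 and 211-fold above it after DAC. CEACAM5 stood 28.0-fold above CEACAM1 in Mock PC9, and after DAC their ratio was 1.12 with overlapping intervals. In A549 CEACAM1 went from 0.884 to 2.13 times the level of CEACAM5, with intervals that overlapped in Mock and not after DAC, and CEACAM6 went from 17.3 to 13.3 times the level of CEACAM1. In H1299 CEACAM5 was 3.67-fold above CEACAM1 in Mock, and after DAC the ratio was 1.361 with overlapping intervals. In CL1-5 CEACAM19 was the highest of the 5 genes in Mock and CEACAM1 after DAC, with counting intervals that overlapped after DAC.

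Reads could in part be shared between such similar genes. Of all stretches of 100 bases in the transcripts, 0.301% of CEACAM1, 1.48% of CEACAM5, 1.79% of CEACAM6, 0.400% of CEACAM19 and none of CEACAM7 also occur in another gene, for CEACAM1 in CEACAM3, for CEACAM19 in PVR, and for CEACAM5 and CEACAM6 in the readthrough gene ENSG00000267881, which was not analysed here. Of stretches of 50 bases the shares were 3.29% of CEACAM1, 5.24% of CEACAM5, 7.22% of CEACAM6, 1.91% of CEACAM19 and none of CEACAM7. At this length CEACAM1 shared 0.612% of its stretches with CEACAM6 and 0.367% with CEACAM5. PC9 held 25923 reads of CEACAM6 and 6 of CEACAM1 in Mock, and 19833 and 170 after DAC. The part of shared reads in the change of CEACAM1 was not tested. The antisense gene LIPE-AS1 overlaps 185 exon bases (3.35%) of CEACAM1, and whether counting used the strand is not given in the sources used here. LIPE-AS1 had Mock and DAC levels of 0.577 and 0.235 FPKM in A549, 0.171 and 0.226 in PC9, 0.154 and 0.567 in H1299, and 0.0877 and 0.0783 in CL1-5. Its part in the CEACAM1 values was not tested.

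Changes of at least 2-fold within a line, on the log2(FPKM + 0.1) scale and among genes with a mean of at least 0.1 FPKM in that line, put the members beside all genes. In A549 CEACAM1 and CEACAM6 were 2-fold higher, 2 of 5 members tested, against 18.1% of all genes. PC9 had CEACAM1 and CEACAM19 2-fold higher, 2 of 4 tested, against 12.3%. In CL1-5 it was CEACAM1, 1 of 2 tested, against 8.35%. No member passed in CL1-0 (1 tested), H1299 (3 tested) and H1792 (1 tested), where 9.32%, 12.9% and 12.9% of genes did. None was 2-fold lower in any line, against 7.46% of genes in H1792, 7.37% in A549, 6.45% in CL1-5, 4.71% in H1299, 3.99% in PC9 and 2.79% in CL1-0. Since the members were chosen on these changes, nothing is read from the shares.

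Across the 5 lines other than H1792, a limma fit with the line as a block gave 27 of 22603 genes higher (0.119%) and 0 lower (0.0%) after DAC at an adjusted p under 0.05. At an unadjusted p under 0.05 there were 1825 higher and 994 lower, and limma voom on the recovered reads called 199 higher and 0 lower. The median log2 fold change over all genes tested was 0.07. None of the related lists below held a gene that passed this threshold, so their values are given as levels and medians.

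The remaining CEACAM genes were mostly silent, and 3 of 7 passed the level filter. CEACAM20, a transmembrane member known from intestinal microvilli, passed it only through its DAC libraries, so its change is given in reads alone. It had 0 reads in Mock A549 and 39 after DAC, 2 and 29 in CL1-5, and 0 and 20 in H1299. CEACAM8, a granulocyte marker, had a mean log2 fold change of -0.07 (SE 0.22, limma adjusted p = 0.910), with 3.24 and 4.17 FPKM in H1299 and 1.09 and 0.661 in PC9. The pseudogene CEACAM22P had a mean log2 fold change of 0.97 (SE 0.29, limma adjusted p = 0.286). It measured 3.57 FPKM in Mock H1299 and 6.69 after DAC, 0.530 and 1.51 in A549, and 0.326 and 1.64 in CL1-5. In CL1-0 it measured 0.508 and 0.597 FPKM, in PC9 0.440 and 0.613, and in H1792 0.509 and 0.605.

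PSG genes, normally expressed by placental trophoblast, were low, with at most 34 reads of any of the 10 genes in a Mock library and at most 120 in a DAC library. The 4 that passed the level filter, PSG1, PSG4, PSG5 and PSG9, did so only through their DAC levels, so no median or test is read from them. PSG9 had 5 reads in Mock PC9 and 116 after DAC, and 34 and 77 in CL1-5. PSG5 had 6 and 51 reads in PC9 and 11 and 33 in A549. CL1-0 had at most 2 reads of any PSG gene.

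Genes that act with CEACAM1 showed no common shift. Over 14 tested binding partners and signalling proteins the median log2 fold change was -0.07, with 6 above 0. PTPN6, which encodes SHP-1, was the highest at 1.22 (SE 0.53, limma adjusted p = 0.406), from 0.0516 to 1.31 FPKM in CL1-5 and from 0.00349 to 0.506 in H1299. In the lines that expressed PTPN6 most, it measured 7.75 and 6.61 FPKM in A549 and 10.7 and 11.6 in PC9. ANXA2, an annexin, was the lowest at -0.33 (SE 0.15, limma adjusted p = 0.411) and lower in 5 of 5 lines. The 11 promoter and splicing factors had a median of -0.02. Among them IRF1, an interferon-induced transcription factor, was the highest at 1.05 (SE 0.27, limma adjusted p = 0.254) and higher in 5 of 5 lines, with 7.92 and 33.4 FPKM in H1299. HNRNPA1, a splicing factor, was the lowest at -0.46 (SE 0.15, limma adjusted p = 0.312).

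The GPI anchor genes, which attach and remodel the anchor of CEACAM5, CEACAM6 and CEACAM7, had a median log2 fold change of -0.17 over 10 genes, 3 of them above 0. PGAP2, which remodels the lipid of the anchor, was lower in 5 of 5 lines at -0.68 (SE 0.16, limma adjusted p = 0.217), and PIGA, which begins its synthesis, was the highest at 0.20 (SE 0.14, limma adjusted p = 0.552). Interferon-stimulated genes had the highest median of the lists, 1.602 over 12 genes, all 12 above 0 and 8 with an unadjusted limma p under 0.05. Over all 22603 genes tested, 1825 were higher at that p. The list was chosen with earlier results of these data known, so the median and the count are descriptions. IFI27 led with 3.51 (SE 0.69, limma adjusted p = 0.175), and IRF9 was lowest at 0.50 (SE 0.31, limma adjusted p = 0.519). Of the 12 interferon-stimulated genes, 11 were 2-fold higher in CL1-5, 9 in A549, 7 in H1299, 3 in PC9, 3 in H1792 and 0 in CL1-0. Among all genes with a mean of at least 0.1 FPKM in the line, the shares were 8.35%, 18.1%, 12.9%, 12.3%, 12.9% and 9.32%, in the same order. The 12 list genes were counted without that filter, so the counts and shares have unlike bases. The part of interferon in the change of CEACAM1 was not tested.

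The epithelial markers had a median of 0.68 over 6 genes, and EPCAM was the highest at 1.69 (SE 0.54, limma adjusted p = 0.309) and CDH1 the lowest at 0.31 (SE 0.21, limma adjusted p = 0.552). Their summed level went from 111.8 to 672 FPKM in H1299 and from 0.986 to 3.05 in CL1-0, but from 3589 to 2235 in A549 and from 2566 to 1792.4 in PC9. It went from 144.2 to 139.7 FPKM in CL1-5 and from 292.7 to 328.7 in H1792. The part of the epithelial genes in the change of CEACAM1 was not tested. The mesenchymal markers had a median of 0.10, with CDH2 highest at 0.27 (SE 0.15, limma adjusted p = 0.467) and VIM lowest at -0.16 (SE 0.28, limma adjusted p = 0.823). Of the leukocyte markers 2 of 7 passed the filter. The lowest, ELANE, a neutrophil protease, passed it only through its Mock levels. Its mean over the 5 lines was 0.175 FPKM in Mock and 0.0607 after DAC, so no test is read from it.

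Genes with the most similar pattern were sought over the 12 libraries, by Pearson's r of log2(FPKM + 0.1) among 13363 genes with a mean of at least 1 FPKM. The libraries of a line are not independent, so r is a description, and the places depend on the setting. Over the 6 Mock libraries alone the first genes named here for CEACAM1, CEACAM5, CEACAM6 and CEACAM19 took places 11, 13, 8 and 67, and with a pseudocount of 1 places 2, 7, 2 and 7. Over all 12 CEACAM1 had the highest r with SCARA5 (r = 0.91), a ferritin receptor that measured 1.77 and 40.3 FPKM in A549 and 0.0976 and 1.96 in PC9, then with TMEM51 (0.87) and DHRSX (0.85). CEACAM5 had it with LINC02582 and CSF2RA, a subunit of the GM-CSF receptor (r = 0.98 and 0.97), and SLCO1B3, an organic anion transporter (0.97). CEACAM6 had it with the unnamed gene ENSG00000275234, CRB3, a cell polarity protein, and SCEL, sciellin of stratified epithelia (all r = 0.98). CEACAM19 had the highest r with CSRNP1 (0.94), BTBD19 (0.93) and the unnamed gene ENSG00000272482 (0.93). Among the members themselves CEACAM5 and CEACAM6 were alike (r = 0.91), and CEACAM1 reached 0.48 with each of them, 0.60 with CEACAM7 and 0.48 with CEACAM19. Genes next to the members gave no common direction. CXCL17, beside CEACAM1, measured 0 and 0.436 FPKM in PC9 but 0.588 and 0.223 in H1299. CEACAM4, beside CEACAM7, was at 0 in every Mock library, and CEACAM3, beside CEACAM6, had at most 4 Mock and 11 DAC reads in a library. CEACAM16, beside CEACAM19, had at most 2 Mock and 9 DAC reads, and PVR on its other side measured 31.5 and 48.0 in PC9 but 46.8 and 37.6 in A549.

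Chromatin accessibility was not used to choose the genes. Each library came as a list of 45354 to 97584 broad peaks with a fold enrichment over its own background, and every line had more peaks after DAC than in Mock. The labels of 4 libraries were at odds with the mRNA-seq. Of 28 genes at 5 FPKM or more in CL1-5 and under 0.1 in PC9, in both arms, a peak at the promoter was listed for 14 in Mock under the CL1-5 label and for 27 under the PC9 label. Of 69 genes with the reverse pattern, one was listed for 65 under the CL1-5 label and for 32 under the PC9 label. The names inside these peak lists also exchange both lines. They are called by their labels here, no peak of theirs is set against the mRNA of a line, and results are also given for A549 and H1299 alone. A mean over the 4 lines does not depend on which of the 2 labels is right.

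Merged over the 8 libraries the peaks formed 208376 regions, and 49 of them were listed for the 5 genes: 18 for CEACAM1, 10 for CEACAM6, 9 for CEACAM7 and 6 each for CEACAM5 and CEACAM19. Regions present in all 8 libraries numbered 5 of the 49, against 9.65% of all regions, and these were 2 at CEACAM1 and 1 each at CEACAM5, CEACAM6 and CEACAM19. Their shared parts are shown in GRCh37, again with CpG dinucleotides in capitals and on the strand of the gene, since they are the sites where accessibility could be read in every line. For CEACAM5 the central 300 of 573 shared bases are given.
CEACAM1 upstream region, chr19:43033530-43033794, minus strand: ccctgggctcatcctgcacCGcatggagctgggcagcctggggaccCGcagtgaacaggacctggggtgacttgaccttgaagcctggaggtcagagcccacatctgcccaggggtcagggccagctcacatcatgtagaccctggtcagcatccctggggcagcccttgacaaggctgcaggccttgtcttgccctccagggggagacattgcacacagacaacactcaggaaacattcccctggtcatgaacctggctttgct
CEACAM5 upstream region, chr19:42210815-42211114, plus strand: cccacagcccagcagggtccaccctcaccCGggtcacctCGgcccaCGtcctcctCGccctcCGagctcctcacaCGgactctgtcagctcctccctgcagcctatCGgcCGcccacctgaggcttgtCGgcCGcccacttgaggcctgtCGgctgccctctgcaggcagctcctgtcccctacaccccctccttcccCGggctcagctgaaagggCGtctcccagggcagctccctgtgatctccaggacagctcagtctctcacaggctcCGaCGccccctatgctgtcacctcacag
CEACAM6 upstream region, chr19:42250670-42250888, plus strand: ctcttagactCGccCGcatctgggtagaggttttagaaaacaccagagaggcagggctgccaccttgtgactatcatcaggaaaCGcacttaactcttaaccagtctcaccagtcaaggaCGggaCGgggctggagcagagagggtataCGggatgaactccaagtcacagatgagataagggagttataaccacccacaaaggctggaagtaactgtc
CEACAM19 intronic region, chr19:45180431-45180687, plus strand: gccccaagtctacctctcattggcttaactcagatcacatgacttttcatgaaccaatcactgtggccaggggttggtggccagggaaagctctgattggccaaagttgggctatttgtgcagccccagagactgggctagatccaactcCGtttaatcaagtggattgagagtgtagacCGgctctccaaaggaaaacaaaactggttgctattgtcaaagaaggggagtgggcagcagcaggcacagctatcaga
The CEACAM5 stretch held 15 CpG dinucleotides and 2 GC boxes, at its bases 110 and 132. The CEACAM6 stretch held 6 CpG dinucleotides and those of CEACAM1 and CEACAM19 held 2 each, with no E-box, GC box or interferon element core. The second CEACAM1 region, chr19:43047186-43047280 annotated as intronic, held none.

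None of the 300-base promoters of CEACAM1, CEACAM5, CEACAM6 and CEACAM7, placed by sequence in GRCh37, was overlapped by a peak in any of the 8 libraries. The open sites lay upstream instead. At CEACAM5 the near edge of the peak lay 888 to 1280 bases before the transcript start used in the lists, across the first base (42210895) of the longest annotated CEACAM7 transcript, which runs the other way. At CEACAM1 it lay 567 to 869 bases before the start, and at CEACAM6 the shared peak lay about 8401 bases before it. The CEACAM19 site was 5623 bases into the gene, in an intron.

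CEACAM5 and CEACAM1 each had a promoter peak in all 8 libraries. CEACAM5, whose FPKM ratios lay within counting error, had the highest mean promoter percentile of the 5 genes in both arms. This holds for peaks assigned as in the peak lists. The CEACAM5 peak also covered the start of the longest annotated CEACAM7 transcript. The enrichment of CEACAM5 was 6.75-fold in A549, 5.35 in H1299, 7.02 in the library labelled CL1-5 and 7.32 in that labelled PC9 in Mock cells. After DAC it was 5.69, 4.48, 4.92 and 5.65 in the same order, lower in each line, and the groups overlapped only through A549 after DAC, PC9 after DAC and H1299 in Mock. The median fold enrichment over all peaks was also lower after DAC in every line, 4.36 and 3.81 in A549, 3.64 and 3.08 in H1299, 3.64 and 3.49 under the CL1-5 label and 3.84 and 3.29 under the PC9 label. Enrichment was therefore expressed as a percentile among 19052 genes with a promoter peak in any library, taking the strongest peak within 3000 bp of the start and 0 where there was none.

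On this percentile scale CEACAM5 stood at 70.6 ± 10.4 in Mock and 62.3 ± 6.57 after DAC (SD, n = 4), lower in 4 of 4 lines with changes from -12.7 to -2.88. The mean change was -8.29 ± 4.13 (SD, n = 4), and the exact permutation test by flipping signs over lines, two-sided, gave p = 0.125, which 4 lines cannot go below, and 0.625 after adjustment over the 5 genes. In A549 and H1299 alone the mean change was -5.38. With a window of 1000 bp, which misses the peak in the Mock library labelled CL1-5, it was 12.03.

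The promoter percentile of CEACAM1 moved both ways. A549, where its mRNA ratio was 3.01, went from a percentile of 70.9 to 50.1, and H1299 from 40.0 to 42.1. The CL1-5 label gave 79.1 and 76.3, for a peak at chr19:43035509-43035837 found in no other library, and the PC9 label 56.2 and 62.1. The mean change was -3.92 ± 11.8 (SD, n = 4), higher in 2 of 4 lines, with an exact sign-flip permutation p = 0.75 and an adjusted value of 0.75. A549 decided the sign, as the mean without it was 1.71. A549 also had a CEACAM1 peak after DAC that was in no other library, at chr19:43025660-43026263 with a fold enrichment of 2.64, over another start in the peak annotation. In A549 and H1299 alone the mean change was -9.38.

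CEACAM6 had a peak 1305 to 1310 bases before its start in the libraries labelled PC9 and in no other, at 5.51 in Mock and 4.40 after DAC. A weak peak inside the gene was listed after DAC and not in Mock both in A549, at 2.41 and 1647 bases from the start, and under the CL1-5 label, at 2.51 and 1536 bases. In H1299, which had at most 3 reads of CEACAM6, there was none within 3000 bp. A region 18827 bases past the start, beyond the gene's end, was listed under the CL1-5 label in both arms, at 7.15 and 5.45, and nowhere else. The mean percentile change of CEACAM6 was 8.07 ± 13.3 (SD, n = 4), with an exact sign-flip permutation p = 0.5 and an adjusted value of 0.625, and it was 9.57 in A549 and H1299 alone.

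CEACAM7 had a promoter peak in Mock and not after DAC in A549 (3.64) and under the CL1-5 label (2.76), one in both arms under the PC9 label (3.27 and 3.20), and none in H1299, as counted from the start used in the peak lists. The start of its longest annotated transcript lies under the CEACAM5 upstream peak, which all 8 libraries have. With peaks placed by position around all annotated starts, CEACAM5 and CEACAM7 therefore had the same mean change, -7.43 ± 3.87 (SD, n = 4), with an exact sign-flip permutation p = 0.125. From the listed start the mean percentile change of CEACAM7 was -13.3 ± 16.9 (SD, n = 4), with an exact sign-flip permutation p = 0.5 and an adjusted value of 0.625, and it was -16.1 in A549 and H1299 alone. CEACAM19 had a peak within 124 bases of its start under the CL1-5 label (4.53 and 4.47) and after DAC under the PC9 label (3.33). H1299 had one 1477 to 1635 bases upstream (2.33 and 2.37), and A549, with 2.13 FPKM of its mRNA in Mock, had none within 3000 bp. Its mean percentile change was 4.56 ± 6.69 (SD, n = 4), with an exact sign-flip permutation p = 0.5 and an adjusted value of 0.625. In A549 and H1299 alone it was -1.14. The CEACAM19 intronic site was open in all 8 libraries, at 5.40 and 7.16 in A549 and 4.18 and 4.56 in H1299.

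**Figure D3:**
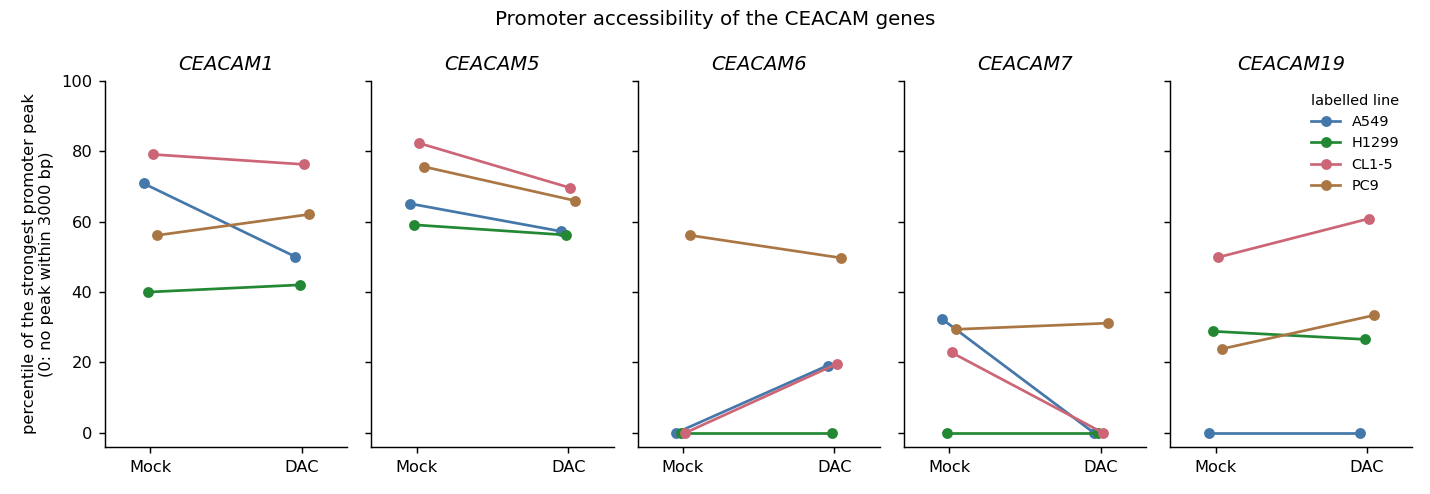
Percentile of the strongest promoter peak of each CEACAM gene in Mock and DAC libraries, joined by labelled line, with 0 for no peak within 3000 bp. All 4 CEACAM5 lines slope down, by changes from -12.7 to -2.88, and the other genes slope both ways or stay at 0.

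Regions at the 5 genes that were listed in 1 arm of a line are set beside the share over all regions. In A549 8 of 24 regions were found after DAC and not in Mock, against 36.6% of all regions of the line, and 4 of 24 in Mock and not after DAC, against 15.8%. H1299 had 6 of 22 gained against 40.3% and 6 of 22 lost against 16.3%. Under the CL1-5 label 7 of 27 were gained against 30.3% and 5 of 27 lost against 20.3%, and the PC9 label had 6 of 23 gained against 35.5% and 5 of 23 lost against 17.1%. In A549 5 of the 10 CEACAM1 regions were gained and 2 of the 10 lost, and CEACAM5 and CEACAM19, with 3 regions each, had none gained. In H1299 1 of the 7 CEACAM1 regions was gained and 2 were lost. A region is called present or absent by the peak caller in 1 library, so these counts have no replicate error.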

How the data were processed

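The mRNA-seq table held FPKM values that the authors derived from gene counts with DESeq2 1.24.0 size factors, on hg19 with a GENCODE release lifted to GRCh37. The submitters' processing notes name TopHat2 2.1.1, whereas the methods name RSEM with bowtie2, so the aligner is uncertain. The authors also deposited a mean normalized signal per gene, from which whole reads were recovered in all 12 libraries (100% of values within 0.01 of a whole number). Log2 fold changes, their standard errors and scores, and p-values of the authors' own comparison were deposited in the same table and not used. For Omni-ATAC-seq the authors mapped with BWA 0.7.17-r1188, marked duplicates with Picard 2.21.4, filtered with SAMtools 1.9, called broad peaks per library with MACS2 2.2.5, and annotated them with ChIPseeker 1.20.0. The deposited lists give a fold enrichment ratio, −log10 p and q values and a score for each peak, all relative to its own library.

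The 5 genes and all lists were chosen with earlier results of these data known. Genes were fitted with limma 3.58.1 (R 4.3.3) on log2(FPKM + 0.1), with a mean of at least 0.1 FPKM over the 10 libraries of 5 lines, a mean-variance trend, the line as a block and Benjamini-Hochberg adjustment at 0.05. Libraries of a line deviated together, r = 0.731 to 0.900 within a line and at most 0.115 between lines. H1792 was outside this fit, as in the study's own comparison of these libraries, and enters as an alternative. The fit was tested on simulated data. Named genes were the 5 members, the highest and lowest of each list, any gene called, the annotated neighbours and the 3 genes of highest r. The highest gene of 1 list is not reported here. Other values were computed in Python 3.11.15 with pandas 2.3.3 and scipy 1.17.1. Peaks listed for a gene follow the authors' annotation, and exon overlaps use GENCODE v44 on GRCh37, a later release than theirs. Promoter sequences and the motif counts are from RefSeq GRCh38.p14.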

Additional observations from a re-analysis of the deposited data

Results flagged for a closer look

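Of 20 groups of 4 to 6 libraries or lines examined for a single far value, 5 held one, where chance gives about 1 in 20. All 5 are transcript levels on which the genes were chosen, so this is a description and no test. CEACAM6 in PC9 stood apart from the other lines at 408.8 FPKM in Mock and 280.9 FPKM after DAC. CEACAM7 in A549 stood apart at 0.669 FPKM in Mock and 0.478 FPKM after DAC, with 0 or 1 read elsewhere. CEACAM1 in Mock A549, at 0.727 FPKM, stood apart from the other Mock lines, and after DAC it no longer did.

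CEACAM6 changed in opposite directions in the lines that express it, with a ratio of DAC to Mock of 2.33 in A549 and 0.687 in PC9. Each value rests on 1 library pair, and the difference between the lines was not tested.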

How the results depend on the processing

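The mean log2 fold changes of CEACAM1, CEACAM6, CEACAM7 and CEACAM19 moved by less than 1 SD under every alternative, CEACAM1 between 0.64 and 2.25. CEACAM5 moved to 0.30 with a pseudocount of 0.01, 0.29 with rescaling to a common sum and -0.15 with quantile normalization, scalings that put the median of all genes at 0.19 and -0.04. CEACAM1 minus CEACAM5 stayed between 0.59 and 1.95, and CEACAM1 minus CEACAM6 between 0.50 and 1.62. With a pseudocount of 1, chosen after seeing the data, 3 pairs of member and line were 2-fold higher. Over the 6 Mock libraries SCARA5 had r = 0.96 with CEACAM1 but was in place 11 instead of 1.

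The count of genes higher after DAC was 0 with a pseudocount of 1, 2 without a filter, 53 with H1792, 41 with rescaling, 17 with quantile normalization and 6 without the trend. It was 10 without the replicate block and 199 with limma voom on recovered reads with the block, where 4 list genes (OAS2, IFIT3, MX1 and IFI27) were called. Leaving out a line gave 0 (A549 or CL1-5) to 22, and 0 to 1 lower. The causes were not tested.

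For promoter percentiles, CEACAM1 reversed to 6.89 when ranked by width, and leaving out a line gave -7.20 to 1.71. CEACAM5 reversed to 12.03 with the 1000 bp window, in which CEACAM6 and CEACAM7 have no peak. CEACAM6 reversed to -1.73 with q under 0.01 and to -1.63 with equal peak numbers, and CEACAM19 to -1.78 with equal peak numbers and to -1.14 in A549 and H1299 alone. The causes were not tested. Depth limits CEACAM values under about 10 reads, and 1 library per line and treatment leaves the variation between cultures unmeasured.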
